A study of Arabidopsis thaliana with 4 samples.

Results

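The genes described here are those that the authors' deposited table gives as different between library 3A and library 1A, all 3730 of them, out of 11508 genes given in at least 1 of the 6 pairwise comparisons of the study. The study used root callus of Arabidopsis thaliana, accession Col-0, in 4 groups of 1 sample each: callus kept on MS medium alone, on MS with 2,4-D at 0.5 mg/L, on MS with NaCl at 100 mM, and on MS with both NaCl and 2,4-D. MS is a standard plant culture medium and 2,4-D a synthetic auxin that keeps plant tissue growing as unorganised callus. All groups came from explants of about 1 cm cut from roots of 30-day-old plants and induced on 2,4-D at 0.5 mg/L, so the untreated callus had met the auxin too. The callus was subcultured every 3 weeks, kept in 16 h of light at 25 °C and treated for 4 weeks, and RNA was pooled within a group and sequenced after poly-A selection.

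The 4 libraries are named 1A to 4A in the deposited tables, and no label used here ties a code to a treatment. The library codes are therefore kept throughout, and no difference below is read as an effect of salt or of 2,4-D. Each side of the comparison is 1 pooled library, so there is no spread between replicates, and the FDR values compare 2 libraries, not 2 conditions. In the authors' deposited table a log2 fold change above 0 means a higher value in 3A, no listed gene has a change smaller than 1 on this scale, and the largest FDR is 0.000996. A gene that is not listed has therefore missed at least 1 of these limits or was not measured, and is not shown to be equal. In whole callus RNA, a difference in the share of a cell type and a difference in RNA per cell cannot be told apart.

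Some background helps in reading the genes. Roots seal their inner tissues with the Casparian strip, a lignin band in the wall of the endodermis, and with suberin, a lipid polyester laid down over the cell surface, and both limit the free passage of water and salt. Abscisic acid is the hormone of water deficit, and its receptors inhibit phosphatases that otherwise hold back the response. Heat shock proteins keep other proteins from clumping and are under the control of heat shock factors, while glucosinolates are sulfur-rich defence compounds of the cabbage family made from methionine or tryptophan.

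More genes were higher than lower. Of the listed genes, the authors' deposited table has 2449 as higher in 3A and 1281 as lower, so 65.7% were higher. The median log2 fold change was 1.33 over all listed genes, 2.06 over the higher ones and -1.70 over the lower ones. Of the 27562 protein-coding genes of the RefSeq annotation, 8.55% were listed as higher and 4.19% as lower, and of the 11508 genes listed in any comparison, 21.3% were higher and 11.1% lower. These percentages are the background for every count of a gene group below.

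The larger the difference, the more it leaned toward 3A, up to a log2 fold change of about 5. Between 1 and 2 in size, 1178 genes were higher and 794 lower, or 59.7% higher, in the authors' deposited table. Between 4 and 5 there were 196 higher and 30 lower genes, or 86.7% higher. Of the genes at 6 or beyond, 73.8% were higher, and 91.3% of the genes in that range, higher or lower, had a fold that is an exact whole number. Such folds made up 412 of the 3730 genes, 326 of them higher, and their median FDR of 1.2e-07 was larger than the 7.63e-20 of the other genes. A whole-number fold can arise when one library stands at a fixed smallest value, and sometimes by coincidence, so these genes are named below without a fold. The expression values themselves were not used here, and whether a library stood at its smallest value was not checked.

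**Figure D1:**
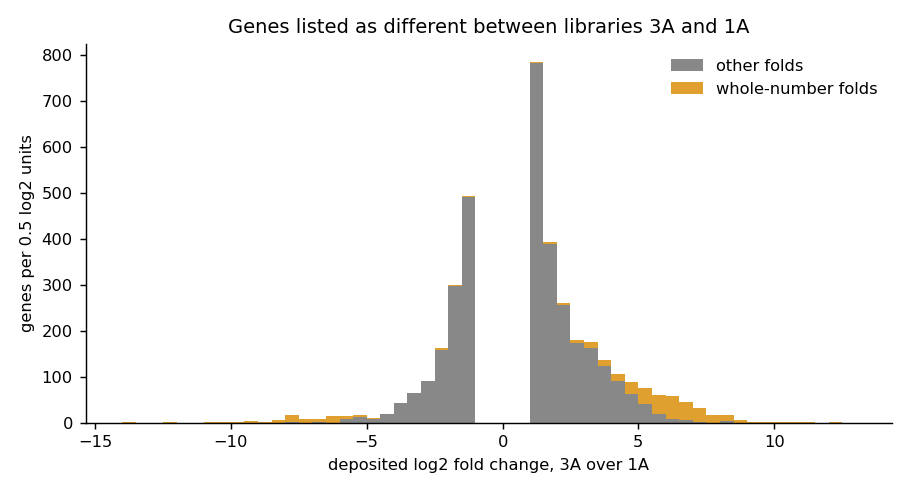
Number of listed genes (y axis, per 0.5 log2 units) by the deposited log2 fold change of 3A over 1A (x axis), with whole-number folds in orange and other folds in grey. The 2449 higher genes lie right of 0 and the 1281 lower ones left of it, nothing lies between -1 and 1, and whole-number folds make up most of both tails.

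Of the 57 gene lists drawn up here, suberin had the largest share of higher genes after the small heat shock proteins. Of 24 genes of suberin synthesis, export and control, 22 were listed as higher in 3A (91.7%, against 8.55% of all protein-coding genes) and 0 as lower, with a median log2 fold change of 4.82. Among the regulators, 6 of 7 MYB factors were listed, and the authors' deposited table gives log2 fold changes of 6.13 for MYB41, 5.72 for MYB93 and 5.05 for MYB92, which switch on suberin genes. MYB39 was not listed. The enzymes came next, with 13 of 14 listed. The authors' deposited table has the feruloyl transferase ASFT, which joins ferulate to suberin lipids, at 5.61, and the fatty acid elongase KCS2 at 5.48. The list also counts the acyltransferases GPAT4, GPAT6 and GPAT8, which are known mainly from cutin. GPAT8 is at 6.08 and GPAT4 at 4.65 in the authors' deposited table, and GPAT6 was not listed. GPAT5 and CYP86A1, an acyltransferase and a fatty acid hydroxylase used as endodermal markers, stand in the authors' deposited table at 4.34 and 4.08. All 3 transporters that export suberin precursors were listed, ABCG6 at 5.41 and ABCG20 at 1.48 in the authors' deposited table, with ABCG2 at a whole-number fold. The smallest change of the group in the authors' deposited table was that of the fatty acyl reductase FAR5, at 1.31, while FAR1 had a whole-number fold.

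Genes of the Casparian strip were also higher. Of 15 genes, 12 were higher and 1 lower (80% and 6.67%), with a median log2 fold change of 3.95. MYB36, the factor that turns on the strip's machinery, stands in the authors' deposited table at 3.88. Its upstream factors SHR and SCR stand there at 2.86 and 1.95. Of the CASP membrane proteins that mark where the strip forms, the authors' deposited table has CASP4 at 4.25, lists CASP1 and CASP2 as higher at whole-number folds, and does not list CASP5. The kinase SGN1 and the receptor GSO1, which check that the strip is closed, have changes of 4.73 and 4.36 by the authors' deposited table, while CIF2, a peptide that this receptor perceives, has one of 3.57. The peroxidase PER64 is at 3.95 in the authors' deposited table, and ESB1, a dirigent protein of lignin placement, at 1.83. The exception was the NADPH oxidase RBOHF, listed in the authors' deposited table at -1.13.

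**Figure D2:**
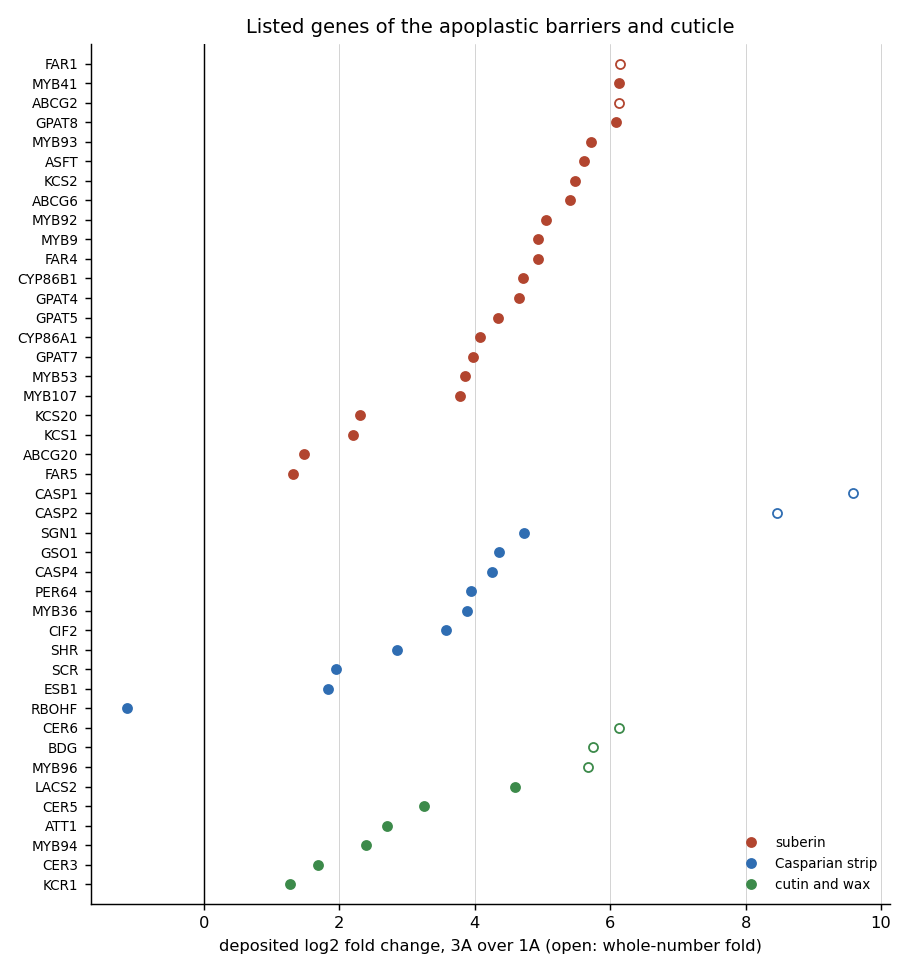
Deposited log2 fold changes of 3A over 1A (x axis) for the listed genes (rows) of suberin, the cuticle and 12 of the 13 of the Casparian strip, with open circles for whole-number folds. The 22 suberin genes and 9 cuticle genes all lie right of 0, and RBOHF is the only point left of it.

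Families related to these barriers, grouped by the product names of the annotation, leaned the same way. They can take in genes already counted above, such as the CASP proteins and ESB1, so they are not separate evidence. Of 39 CASP-like proteins 11 were higher and 1 lower, of 14 laccases 5 were higher and 0 lower, and of 26 dirigent-like proteins 10 were higher and 2 lower. The laccase LAC3, a copper oxidase of lignin formation, is at 4.68 in the authors' deposited table. Cutin and wax genes had 9 of 24 members higher and 0 lower, with the acyl-CoA synthetase LACS2 at 4.59 and the wax exporter CER5 at 3.25 in the authors' deposited table. The core lignin pathway was mostly not listed: 22 of 28 phenylpropanoid genes were absent, among them PAL1, PAL2, C4H and HCT. The peroxidase PRX72 stands in the authors' deposited table at 5.65, and PAL3 at -3.04.

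The heat shock proteins were higher as a block. Of 15 small heat shock proteins 14 were higher in 3A (93.3%) and 0 lower, with a median log2 fold change of 2.69 and no whole-number fold among them. In the authors' deposited table they run from 2.01 for HSP23.5 to 3.94 for HSP17.6C, and for 12 of the 14 the FDR is listed as 0. HSP15.4 was not listed. Of 18 large chaperones and cochaperones 15 were higher (83.3%) and 0 lower, at a smaller median of 1.79. The cytosolic chaperone HSP70B stands in the authors' deposited table at 3.73 and the disaggregase HSP101 at 2.21, while HSP90.1 is at 1.37. HSC70-1, the constitutive form, was not listed. Among 21 heat shock factors 5 were higher and 0 lower, and the authors' deposited table gives 4.19 for HSFA7B, 1.85 for HSFA7A and 1.34 for HSFA2, with HSFA6B at a whole-number fold. The master factors HSFA1A, HSFA1B, HSFA1D and HSFA1E were not listed. Chaperones of the endoplasmic reticulum formed a contrast: of 20 genes only ERDJ3A was listed, at 1.25 in the authors' deposited table.

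The control regions of heat shock genes, and further on of dehydration and abscisic acid genes, are shown because all the listed chaperone genes and most of the listed dehydration genes were higher. Windows of 250 bases before each annotated gene start were read from RefSeq's TAIR10.1 assembly and written 5′ to 3′ on the gene's strand. The heat shock element was searched as GAANNTTC or TTCNNGAA on both strands, allowing overlaps. It was found before 7 of 15 small heat shock protein genes (46.7%), 4 of 18 large chaperones (22.2%) and 5 of 21 heat shock factors (23.8%), beside 16.1% of all 27443 windows. It was also found before 371 of 2356 genes listed as higher and 199 of 1154 listed as lower. The 2 windows below hold the most matches, in capitals, among the higher chaperone genes whose window overlaps no other gene, with ties settled by the larger change. HSP17.4 lies on the minus strand at chr3:16984868-16985117 and HSP26.5 on the minus strand at chr1:19575867-19576116.
HSP17.4: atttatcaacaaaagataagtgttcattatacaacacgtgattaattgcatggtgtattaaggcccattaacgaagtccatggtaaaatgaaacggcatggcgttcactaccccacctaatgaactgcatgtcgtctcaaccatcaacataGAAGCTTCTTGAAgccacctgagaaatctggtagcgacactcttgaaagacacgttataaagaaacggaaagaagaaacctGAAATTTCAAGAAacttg
HSP26.5: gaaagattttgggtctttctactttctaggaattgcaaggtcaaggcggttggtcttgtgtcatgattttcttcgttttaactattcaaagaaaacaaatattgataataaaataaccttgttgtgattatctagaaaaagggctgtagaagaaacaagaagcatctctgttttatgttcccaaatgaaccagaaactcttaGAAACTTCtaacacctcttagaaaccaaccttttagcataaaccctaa
HSP17.4, with 4 overlapping matches in 2 blocks, is at 2.24 by the authors' deposited table, and HSP26.5, with 1 match, at 2.93. A match is a run of letters and not a shown binding site.

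The abscisic acid response was mixed across its steps. Of 9 receptors only PYL2 was higher, with a value 3.25 times that of 1A by the authors' deposited table, while 3 were lower. The lower receptors in the authors' deposited table were PYL6 at -4.59, PYL5 at -1.06 and PYR1 at -1.03. Of 9 phosphatases of the family on which the receptors act, though not on every member, 5 were higher and 0 lower. HAI2 is at 5.50, HAI3 at 3.89 and HAI1 at 2.16 in the authors' deposited table. ABI1, HAB1 and PP2CA were not listed, nor were the 3 SnRK2 kinases that the phosphatases switch off. Among 15 synthesis and breakdown genes 4 were higher and 1 lower, and NCED3, which makes the committed step of synthesis under drought, stands at 1.65 in the authors' deposited table. The factors split too: of 18, 5 were higher and 2 lower, with AFP1 at 3.41, ABF2 at 1.53 and ANAC019 at -3.23 in the authors' deposited table.

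The listed genes of dehydration tolerance were mostly higher. Of 26 dehydration and LEA genes, whose products protect cells as they dry, 11 were higher (42.3%), 1 was lower and 14 were not listed. The median log2 fold change of 4.94 rests on 4 whole-number folds and is 2.18 without them. RD22 stands in the authors' deposited table at 6.91, the caleosin RD20 at 5.46, the dehydrin LTI30 at 2.47 and RD29A at 1.90. RAB18, RD29B, LEA76 and LTP3 were higher at whole-number folds. LEA4-1 was lower, at -2.41 in the authors' deposited table, and COR15A, COR47, KIN1 and ERD10 were not listed. The cold regulators CBF1, CBF2 and DREB1A were not listed either.

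The abscisic acid element was searched as ACGTGG or ACGTGT on both strands, and a palindrome such as ACACGTGT counts as 2 matches. It was found before 17 of 26 dehydration and LEA genes (65.4%), 11 of 18 abscisic acid factors (61.1%) and 7 of 21 receptor, phosphatase and kinase genes (33.3%), beside 16% of all windows. It was also found before 449 of 2356 genes listed as higher, 203 of 1154 listed as lower and 5 of 24 suberin genes. Matches are in capitals in 2 windows of higher genes that hold several, those of LEA4-5, at chr5:2090431-2090680, and HAI2, at chr1:2282829-2283078, both on the minus strand.
LEA4-5: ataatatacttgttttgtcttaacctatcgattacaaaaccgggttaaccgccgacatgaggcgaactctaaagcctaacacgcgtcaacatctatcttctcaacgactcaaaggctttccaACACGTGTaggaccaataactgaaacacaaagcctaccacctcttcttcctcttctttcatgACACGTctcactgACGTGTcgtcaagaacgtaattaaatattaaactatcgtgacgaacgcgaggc
HAI2: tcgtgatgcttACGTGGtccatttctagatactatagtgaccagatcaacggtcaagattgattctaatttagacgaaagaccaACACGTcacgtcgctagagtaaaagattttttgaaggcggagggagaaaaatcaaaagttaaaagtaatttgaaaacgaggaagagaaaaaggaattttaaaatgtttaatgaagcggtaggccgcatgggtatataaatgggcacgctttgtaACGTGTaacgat
By the authors' deposited table, LEA4-5 with 4 matches is at 1.77 and HAI2 with 3 at 5.50.

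Some enzymes that make protective sugars and proline were higher, and most were not listed. Of 45 osmolyte genes 15 were higher (33.3%), 1 was lower and 29 were not listed, with a median log2 fold change of 2.39. Galactinol synthases, which start raffinose synthesis, stand in the authors' deposited table at 4.80 for GolS4, 3.67 for GolS2 and 1.68 for GolS1. The trehalose phosphate phosphatase TPPH is at 4.84 and the synthase TPS9 at 2.63 in the authors' deposited table, and TPPF had a whole-number fold. P5CS1, the rate-limiting enzyme of proline synthesis, is at 2.14 in the authors' deposited table, whereas its partner gene P5CS2 was not listed. The raffinose synthase gene SIP1 is at 2.91 in the authors' deposited table, and DIN10 was lower at -1.24.

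Most genes of ion and water transport were not listed, but apart from the proton pumps their share of higher genes was above the background. Of 40 sodium and potassium transport genes 8 were higher (20%, against 8.55% of all protein-coding genes), 0 were lower and 32 were not listed. HKT1, which retrieves sodium from the xylem, and SOS3, a calcium sensor of salt signalling, were higher at whole-number folds. The transporters SOS1 and NHX1 to NHX6, which move sodium out of the cell or into its compartments, were not listed. The potassium transporters KUP8, KUP6, KUP9 and KUP10 lie between 1.47 and 1.93 in the authors' deposited table. Of 16 proton pump genes only AHA4 was listed, at 1.92 in the authors' deposited table. Of 35 aquaporins 8 were higher (22.9%) and 2 lower (5.71%), from TIP2;3 at 3.68 to DELTA-TIP at -1.68 in the authors' deposited table.

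**Figure D3:**
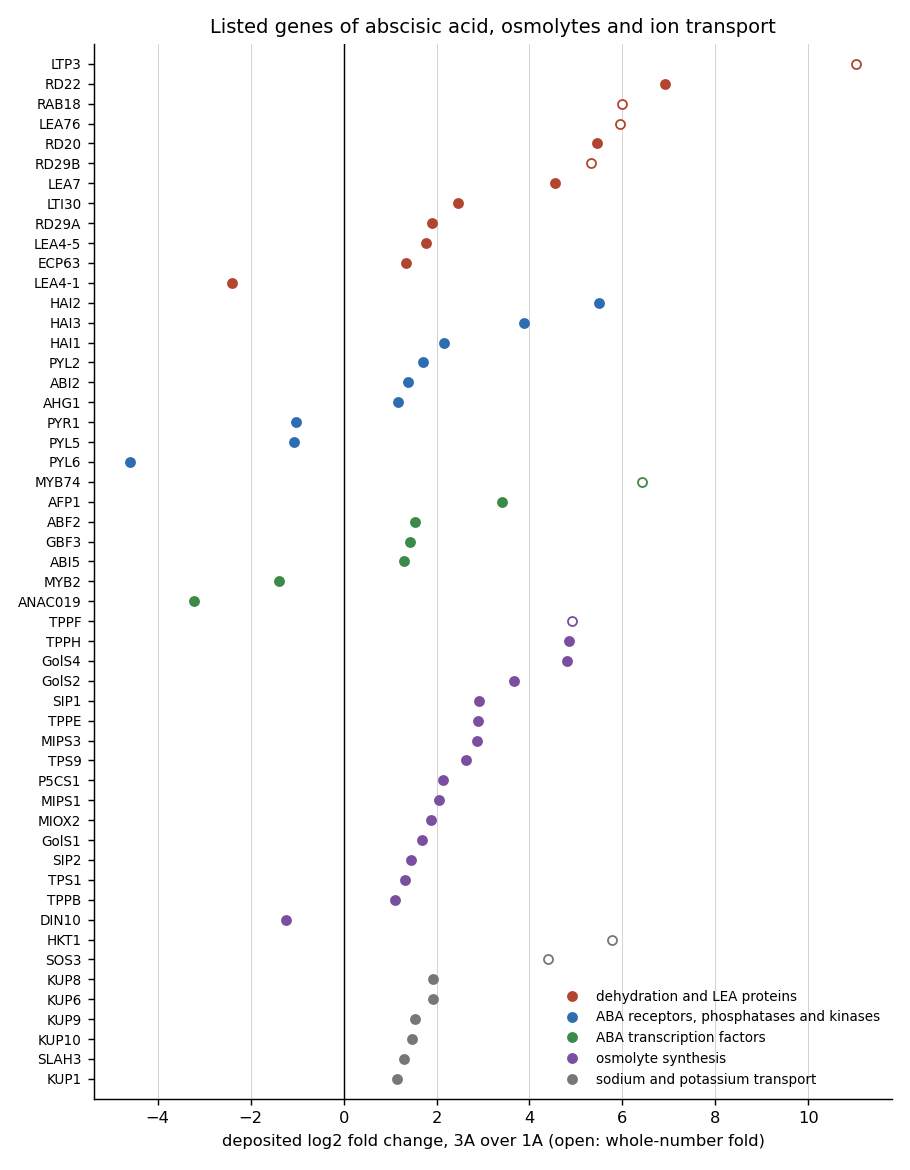
Deposited log2 fold changes of 3A over 1A (x axis) for each listed gene (rows) of dehydration, abscisic acid, osmolyte and ion transport lists, with open circles for whole-number folds. Most points lie right of 0, and PYL6 at -4.59 and ANAC019 at -3.23 are the lowest.

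Genes that make glucosinolates from methionine were higher, and some genes tied to their breakdown were lower. Of 10 genes of methionine chain elongation 8 were higher and 0 lower, with a median log2 fold change of 2.81. The synthase MAM3 stands in the authors' deposited table at 3.29, the isomerase subunits IPMI2 and IPMI1 at 3.14 and 2.82 and the aminotransferase BCAT4 at 2.97. Of 15 genes of the core and side chain steps 10 were higher and 1 lower, led in the authors' deposited table by the cytochromes P450 CYP79F2 at 3.36 and CYP83A1 at 2.76. MYB28, the regulator of the methionine branch, is at 1.81 in the authors' deposited table, and MYB34, of the tryptophan branch, was higher too. The cytochrome P450 CYP83B1, outside the methionine groups above, was lower, at -1.20 in the authors' deposited table. Of 14 myrosinases, ER body and binding proteins 4 were lower and 1 higher, and the rest were not listed, among them the myrosinases TGG1 and TGG2. In the authors' deposited table MBP1 is at -3.27, MBP2 at -2.91, JAL23 at -2.63 and BGLU18 at -2.29, and the higher gene, ESM1, is at 3.16. CYP79F1 and CYP79F2, and MAM1 and MAM3, are near copies in tandem, and how the authors' counting shared reads between them is not given.

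The listed transporters of amino acids were nearly all higher. Of 48 genes 18 were higher (37.5%), 1 was lower and 29 were not listed, with a median log2 fold change of 1.98. Of 20 UMAMIT exporters 11 were higher and 0 lower, led in the authors' deposited table by UMAMIT27 at 6.79, UMAMIT36 at 6.42 and UMAMIT29 at 5.05. All 5 GLUTAMINE DUMPER genes, whose products raise amino acid export, were higher, with GDU3 at 2.65 in the authors' deposited table. The permease AAP2 is at 6.64 there, and the 1 lower gene, GAT1, a carrier of gamma-aminobutyrate, at -1.29. Sugar exporters of the SWEET family had 6 of 17 members higher and 0 lower, with SWEET11 at 5.34, SWEET15 at 4.54 and SWEET8 at 4.31 in the authors' deposited table. The sucrose carrier SUC5 and the hexose carrier STP1 were lower, at -3.10 and -1.39 in the authors' deposited table.

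Nutrient genes moved in both directions. Of 25 sulfate genes 8 were higher (32%) and 0 lower, including the reductase APR1 at 1.25 in the authors' deposited table. Of 37 nitrogen genes 9 were higher and 2 lower, with the xylem nitrate transporter NRT1.5 at 5.25, nitrite reductase NIR1 at 2.37 and NRT2.5 at -2.27 in the authors' deposited table. In the phosphate list 5 of 39 were higher and 9 lower, but among changes of at least 2 on the log2 scale higher members outnumbered lower ones by 2. The transporters PHO1 and PHT1;1 are at 5.10 and 4.61 in the authors' deposited table, while SPX1 and the noncoding RNA gene AT4, both induced by phosphate starvation, are at -2.24 and -2.12. Iron and metal genes had 13 of 57 higher and 7 lower. Nicotianamine synthases pointed opposite ways, NAS1 at 5.90 and NAS4 at 5.61 but NAS3 at -3.31 in the authors' deposited table, where IRT2, an iron transporter, is at -4.98. The copper and zinc superoxide dismutase CSD2 is at 3.19 in the authors' deposited table, and its copper chaperone CCS is at 1.54.

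The listed root meristem genes were all higher, many at whole-number folds. Of 27 root meristem and founder cell genes 14 were higher (51.9%) and 0 lower, 7 of them at whole-number folds, among them PLT1, PLT2, BBM and PUCHI, factors of stem cell and lateral root identity. WOX5, the factor of the quiescent centre, stands in the authors' deposited table at 3.19, JKD at 3.85 and the founder cell factor WOX12 at 3.55. Of shoot meristem genes 5 of 24 were higher and 2 lower, with STM, which keeps shoot stem cells undifferentiated, at 3.52 in the authors' deposited table. Among markers taken to define cell types, 5 of 5 for root meristem and 8 of 9 for endodermis were listed as higher. The markers of these 2 types are members of the root meristem, Casparian strip and suberin lists already counted, so they are not separate evidence. For root hair, xylem, shoot meristem and root cap 1 marker each was higher, out of 4, 5, 3 and 3. No marker of phloem, guard cell, green cells or seed was listed, and no marker of any type was lower. The markers are few, and other genes of the longer lists did differ. In the phloem list 5 of 23 genes were higher and 0 lower, and 11 of 63 photosystem and Rubisco genes were lower and 0 higher. Whether the makeup of the callus accounts for these gene groups was not tested.

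The listed auxin genes leaned toward 3A. Of 24 transport genes 9 were higher (37.5%) and 2 lower, with the carriers LAX2 at 4.92 and PIN2 at 4.71 in the authors' deposited table, and PID, the kinase that directs PIN proteins, at -1.45. Of 29 AUX/IAA repressors, which auxin induces and degrades, 8 were higher and 0 lower, with IAA14 at 2.92, IAA7 at 2.88 and IAA17 at 2.71 in the authors' deposited table. The synthesis genes TAA1, TAR and YUC had 5 of 16 higher and 1 lower, with YUC9 at 2.99 and TAA1 at 2.23 in the authors' deposited table. Of other synthesis genes, CYP79B2 is at 1.25, NIT1 at -1.27 and NIT2 at -1.55 in the authors' deposited table. SAUR genes, early auxin targets, leaned toward 1A: of 78, 4 were higher and 11 lower. Among 52 cytokinin genes 13 were higher and 2 lower, and none of 10 type-A response regulators was listed. The degrading enzyme CKX3 is at 5.27 and the synthesis enzyme CYP735A1 at 4.92 in the authors' deposited table. The gibberellin list was split, with GA3OX1, which makes the active hormone, at 3.12 and GA2OX2, which inactivates it, at -2.32 in the authors' deposited table.

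The listed genes of the defence hormones were mostly lower. Of 38 jasmonate genes 10 were lower (26.3%, against 4.19% of all protein-coding genes) and 1 higher, with a median log2 fold change of -1.12. The lipoxygenase LOX2 stands in the authors' deposited table at -4.04, the cyclase AOC1 at -2.74, the repressor JAZ8 at -2.07 and the defensive thionin THI2.1 at -1.81. JAR1, which makes the active conjugate, is at 1.06 in the authors' deposited table, and COI1 and MYC2 were not listed. Of 38 salicylate and defence genes 8 were lower (21.1%) and 0 higher, and the authors' deposited table puts the defence regulator CBP60G at -1.94, PBS3 at -1.74 and CYP81F2 at -2.65. AOC1 and AOC2 are near copies, which may share reads.

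Photosynthesis genes were mostly not listed, and the listed photosystem and Rubisco genes were all lower. Of 63 such genes 11 were lower and 0 higher. That is 17.5% lower, against 4.19% of all protein-coding genes. All 11 were close to the lower limit of the list, from -1.04 for GAPA to -1.57 for CAB1 in the authors' deposited table. CAB1, CAB2 and LHB1B2 are near copies of one another. Of 34 carotenoid genes and 21 embryo and seed genes 0 were listed, and of 34 chlorophyll genes 2 were higher. Flavonoid enzymes were higher in 9 of 22 cases (40.9%) and lower in 0, with FLS1, which makes flavonols, at 4.89 and chalcone synthase TT4 at 3.45 in the authors' deposited table, but DFR and LDOX of the anthocyanin branch were not listed. The flavonol regulator MYB12 is at 3.28 in the authors' deposited table.

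Genes of the ribosome and proteasome were little represented, whereas cell wall growth genes were listed more often than the background. Of 68 cell cycle genes 3 were higher and 3 lower, each 4.41%, beside 8.55% and 4.19% of all protein-coding genes. In the authors' deposited table the cyclin CYCD6;1, of formative divisions in the root, is at 4.00 and the inhibitor SMR1 at -2.60. Of 376 ribosomal protein genes 4 were higher and 1 lower, and of 36 proteasome subunits 0 were listed. Cell wall growth genes were split, with 19 of 86 higher (22.1%) and 12 lower (14%). Among expansins, which loosen walls, EXPA15 is at 3.75 and EXPA12 at -2.34 in the authors' deposited table. Starch and sugar metabolism had 4 of 62 higher (6.45%) and 7 lower (11.3%), with the amylase AMY1 at -5.92 and the plastid glucose phosphate carrier GPT2 at -3.98 in the authors' deposited table.

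**Figure D4:**
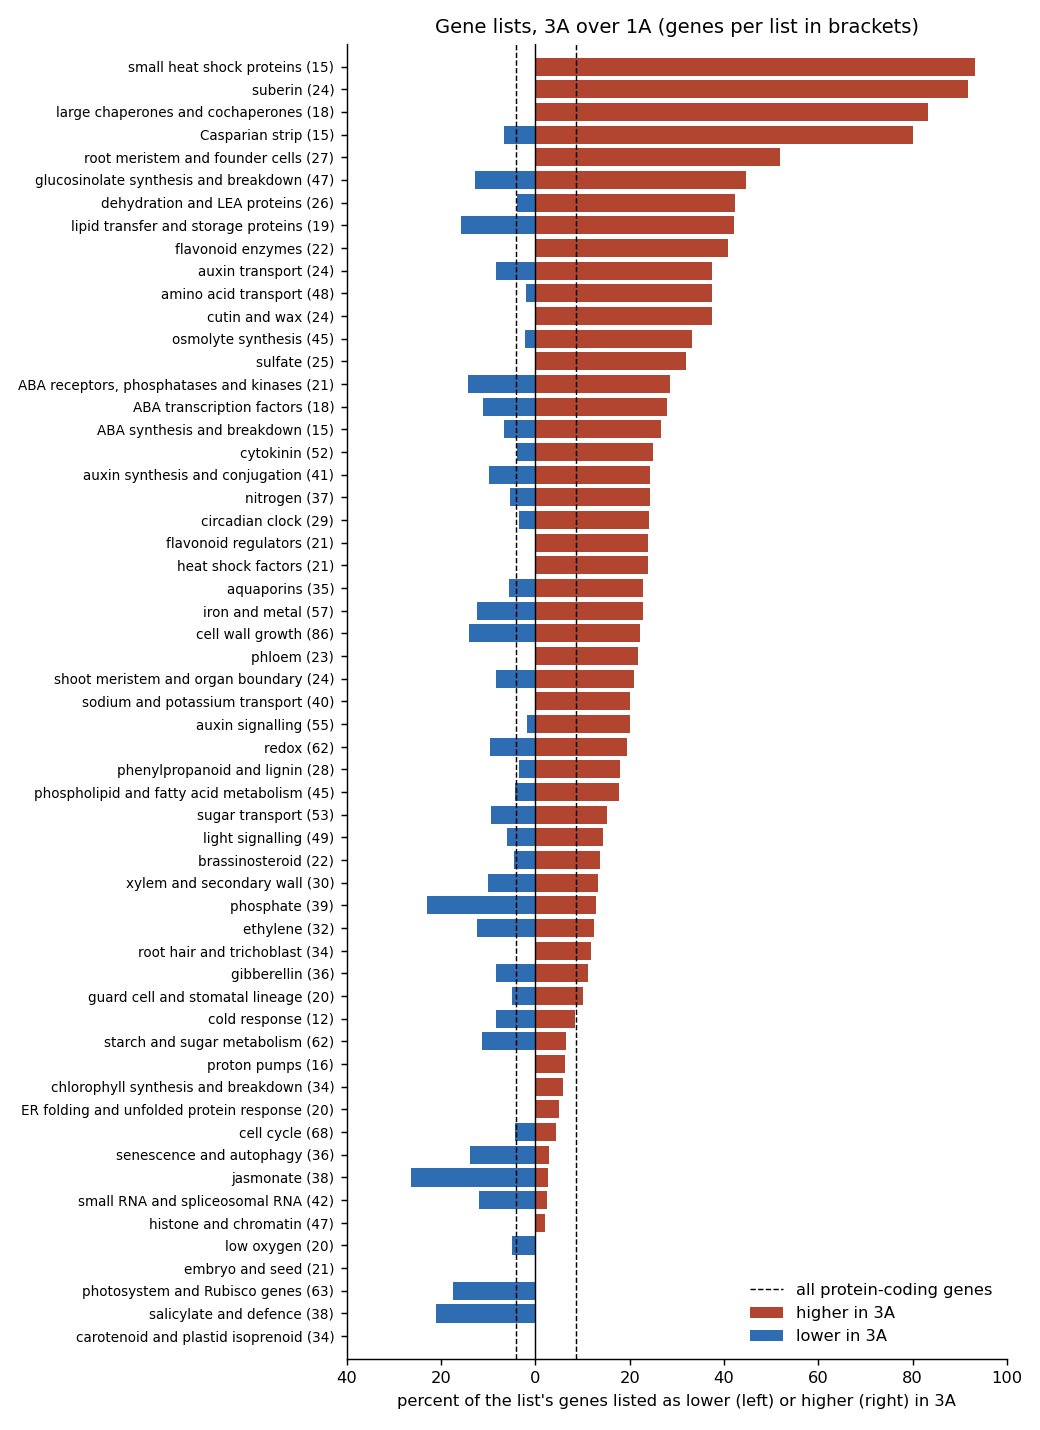
Percent of each gene list (rows, number of genes in brackets) listed as higher (right, red) or lower (left, blue) in 3A than in 1A, with dashed lines at the 8.55% and 4.19% of all protein-coding genes. Small heat shock proteins, suberin, large chaperones and the Casparian strip stand furthest right, and jasmonate furthest left.

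Over all listed genes, whether or not in a gene list, the highest symbols without a whole-number fold in the authors' deposited table were MSL4 at 8.11, a channel-like protein of the mechanosensitive family, then RD22, UMAMIT27 and the homeodomain factor HAT1 at 6.76. The lipid transfer proteins AT4G33550 and AT3G53980, which have no symbol, stand above them in the authors' deposited table at 8.24 and 8.20. The lowest symbols in the authors' deposited table were AMY1, the NAC factor NAC025 at -5.81, the lectin-like gene PP2-B7 at -5.80 and the spliceosomal RNA gene U2.6 at -5.61. At whole-number folds the highest included LTP3, CASP1 and KCS10, and the lowest included U2.11, DND1 and ACBP1.

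The comparison of 4A with 2A shares no library with that of 3A with 1A, so the 2 can be set side by side. It lists 3420 genes, 976 higher in 4A and 2444 lower. Among protein-coding genes 3.23% were higher and 8.28% lower. Of the genes listed for 3A over 1A, 1247 were also listed there, which is 33.4% of the one list and 36.5% of the other. Of the 2449 genes higher in 3A, 226 were higher in 4A than in 2A and 610 were lower, so 73% of those listed in both were higher in 3A and lower in 4A. Of the 1281 genes lower in 3A, 90 were higher and 321 lower in 4A, so 78.1% of those listed in both were lower in both. These shares are the background for the lists.

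The lists differed in which way they went. The heat shock proteins went the same way, with 11 of 11 small heat shock proteins and 12 of 12 large chaperones listed in both comparisons higher in both. Among all genes higher in 3A and listed in both, 27% were higher in both. HSP26.5 stands in the authors' deposited table at 2.93 for 3A over 1A and 2.82 for 4A over 2A, and HSFA2 at 1.34 and 2.27. The heat shock factors were split: of 5 listed in both, 3 were higher in both and 2 went opposite ways, HSFC1 and HSFA6B being higher in 3A and lower in 4A, where the authors' deposited table puts HSFA6B at -6.35. Jasmonate genes were lower in both in 7 of 7 cases, such as AOC1 at -2.74 and -3.53 in the authors' deposited table. For so few genes this is not far from the 78.1% of all lower genes listed in both, so it is not particular to the list. Glucosinolate genes mostly went opposite ways: of 16 listed in both, 15 were higher in 3A and lower in 4A, and 1 was lower in both. The 73% above is a share of genes higher in 3A only, so that 1 gene falls outside it. MAM3 stands in the authors' deposited table at 3.29 and -5.25, and BCAT4 at 2.97 and -5.88. In amino acid transport 9 of 11 were higher in 3A and lower in 4A, such as AAP2 at 6.64 and -5.38 in the authors' deposited table. Of the others 1 was higher in both and 1 lower in both, and the gene lower in both again falls outside the 73%. Of the suberin genes only 3 were listed in both, GPAT8 at 6.08 and -5.01, MYB92 at 5.05 and -2.43 and FAR5 at 1.31 and 1.57 in the authors' deposited table. Of the Casparian strip genes 6 were listed in both, all higher in 3A and lower in 4A, which for so few genes is not far from the same 73%.

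**Figure D5:**
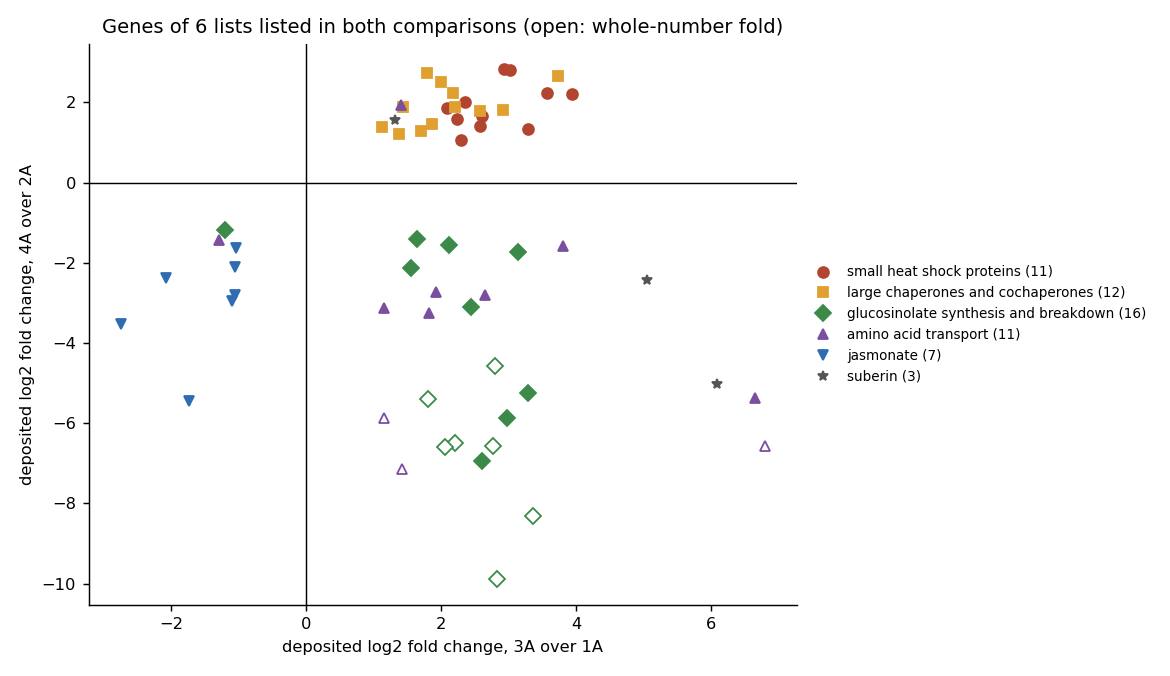
Deposited log2 fold changes of 4A over 2A (y axis) against 3A over 1A (x axis) for the genes of 6 lists that both comparisons list (numbers in the legend), with open symbols for a whole-number fold in either. Chaperones lie in the upper right, jasmonate genes in the lower left, and 15 of 16 glucosinolate genes in the lower right.

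The other 4 comparisons share library 1A or 3A with this one, so their values are given beside it and not as separate evidence. MYB93 has log2 fold changes in the authors' deposited table of 5.72 for 3A over 1A, 2.73 for 2A over 1A, 2.34 for 4A over 1A, 2.99 for 3A over 2A and -3.38 for 4A over 3A. ASFT shows the same order of libraries, at 5.61, 2.16, 2.15, 3.45 and -3.46 in the authors' deposited table. For both genes 3A is the highest of the 4 libraries, and 1A the lowest. CYP86A1 was not listed for 2A or 4A over 1A and stands in the authors' deposited table at 3.83 for 3A over 2A and -3.90 for 4A over 3A. HSP23.6-MITO differs: the authors' deposited table puts it at 2.76 for 3A over 1A, 2.27 for 2A over 1A and 2.64 for 4A over 1A, and does not list it between 3A and 4A. MAM3 is at -1.15 for 2A over 1A and -6.40 for 4A over 1A in the authors' deposited table, so that 3A was highest and 4A lowest for this gene.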

How the data were processed

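RNA from 4 Arabidopsis root callus samples, 1 pooled sample per group, was sequenced by the authors. Bowtie2 2.2.5, Bowtie, HISAT, Cufflinks, StringTie 1.0.4 and the TAIR10 build appear, per the submitters' processing notes, with no roles, so the mapping and counting steps are not given in the sources used here. Per the file headers, the authors deposited a log2 fold change for each pair of libraries together with p-values and FDR values, and a transcript length per gene. The number of genes tested was not stated. The 6 workbooks also hold 36 columns of per-library values whose codes match no label, and these were not used. The ratio was therefore not recomputed, levels were not read, and the sequencing depth, with any counting interval, was not determined.

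No test was run, because each side is 1 library. A fold was called a whole number when it lay within a relative 1e-09 of one. The rule was tested on simulated data. Gene identifiers were matched to RefSeq for 3685 of the 3730 genes; the other 45 are transcripts the authors added. The 57 gene lists hold 1896 genes, of 2153 entries written; 47 ambiguous entries and 21 without a match were dropped. The genes and lists were chosen with earlier results of these data known, and the 42 families by product name were added after the files were seen. Named genes were, per list, up to 8 of the largest changes with no whole-number fold and up to 4 with one, and for contrast the smallest changes, members not listed and cell type markers. A few others of known role were named after their values were seen. Overlap was given only with 4A over 2A, which shares neither library. Promoter windows came from RefSeq's TAIR10.1 genome and annotation. Some items are not reported here. Python 3, NumPy, pandas and Matplotlib were used. The alternatives tried were a minimum change of 2 on the log2 scale, an FDR under 1e-10, leaving out whole-number folds, and leaving out added transcripts.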

Additional observations from a re-analysis of the deposited data

How the results depend on the processing

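At a minimum change of 2 on the log2 scale, 1271 genes were higher and 487 lower, or 72.3% higher. With an FDR under 1e-10, 1441 were higher and 889 lower, or 61.8% higher. Without whole-number folds 2123 were higher and 1195 lower, or 64% higher, and without added transcripts 65.8% were higher. Higher genes outnumbered lower ones under each of these. Both stricter limits leave fewer genes by construction. Of the 57 lists, the phosphate list turned from more lower to more higher genes at the stricter fold limit, to a difference of 2. Without whole-number folds the gibberellin list turned to more lower than higher genes, a difference of -1 and a median of -1.23 on the log2 scale, and the ethylene list's median became -1.15. The pseudocounts and the filter on low values were not run, since they need the per-library columns. No paired analysis was possible because each group has 1 sample and the result comes from no test. Depth is not known, so it cannot be said which differences it limits; with 1 library a side, no value above has a replicate check.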

Other observations

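Among the listed genes, those that do not code for protein were more often lower than higher, unlike those that do. The share of all such genes in the annotation that was listed was not determined, so these counts have no background. Of 175 such genes that the authors' deposited table holds, 67 were higher and 108 lower, with a median log2 fold change of -1.35, beside 1.36 for the 3510 protein-coding genes. All 8 spliceosomal RNA genes and all 3 snoRNA genes listed were lower. The U2 genes are near copies of one another, and the libraries were poly-A selected. U2.1, U2.5 and U2.10 stand in the authors' deposited table at -2.78, -3.03 and -3.76. Of 106 listed long noncoding RNA genes 47 were higher and 59 lower.

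Neighbouring genes were sometimes listed together. On the nuclear chromosomes 42 runs of at least 3 adjacent protein-coding genes were all listed in one direction, 30 of them higher and 12 lower. Among all protein-coding genes 8.55% were listed as higher and 4.19% as lower. How many runs these shares alone would give was not determined, so the run counts have no background. The longest run was 7 genes on chromosome 1, all lower, which code for proteins with a TIR domain, the signalling domain of many disease resistance proteins. In the authors' deposited table they range from -1.24 for AT1G72890 to -3.14 for AT1G72910. The glutathione transferase genes GSTF7, GSTF6, GSTF5 and GSTF4, also on chromosome 1, are at -2.30, -2.26, -2.54 and -1.01 in the authors' deposited table, whereas GSTU24, GSTU25 and GSTU26 lie together at 1.45, 2.82 and 4.60. On chromosome 5 the germin-like genes GLP6, AT5G39110, AT5G39120 and AT5G39130 are at 2.06, 3.42, 3.76 and 4.04 in the authors' deposited table. Such tandem genes are similar in sequence, and their reads may have been shared.

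Among larger families by product name, UDP-glycosyltransferases had 36 of 131 members higher and 5 lower, leucine-rich repeat receptor kinases 34 of 176 higher and 5 lower, and homeobox factors 18 of 82 higher and 1 lower. Cysteine-rich receptor-like kinases had 3 of 37 higher and 8 lower, led by CRK39 at -4.85 in the authors' deposited table.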
